A study of Mus musculus with 20 samples.

Results

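The genes described here encode the enzymes that oxidise ethanol and its product acetaldehyde. They are 4 alcohol dehydrogenases (Adh1, Adh4, Adh5 and Adh7), 4 aldehyde dehydrogenases (Aldh1a1, Aldh1b1, Aldh2 and Aldh9a1), the cytochrome Cyp2e1 and the catalase gene Cat. They were chosen by symbol, and all 10 were found among the 24972 gene symbols of the liver table. Each was followed through the 4 genotype and diet groups of liver, and then in RAW264.7, a line of mouse cells that resemble macrophages, as a contrast without hepatocytes.

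RNA was sequenced from total liver of mice labelled RageΔMye, 3 fed alcohol diet and 3 fed control diet, and of mice labelled WT, 4 fed alcohol diet and 4 fed control diet. All of these mice were labelled male and were fed for 6 weeks. RAW264.7 cells, labelled WT, were exposed for 6 hours to [O] HMGB1 with IL1β, named a complex in the labels (n = 3), or to BSA (n = 3). RAGE is the receptor encoded by Ager, and the genotype's name points at a change in myeloid cells, but the labels give neither the promoter that drives it nor the ages. Nothing in the labels says that libraries of a group came from separate animals or cultures, so p-values measure the spread between these libraries, which may be technical.

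In liver, ethanol is oxidised to acetaldehyde mainly by cytosolic alcohol dehydrogenases, with further routes through microsomal Cyp2e1 and through peroxisomal catalase, which uses hydrogen peroxide. Aldehyde dehydrogenases then turn acetaldehyde into acetate. Both dehydrogenase steps make NADH, and several of the same enzymes oxidise retinol, retinaldehyde or formaldehyde. Cyp2e1 and Adh1 are among the most abundant messenger RNAs of hepatocytes.

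Values are in TPM, which relates reads to gene length and library total, so levels may be compared between genes. They are levels of RNA, and in whole tissue fewer cells of a type and less RNA per cell cannot be told apart. A difference is the mean log2(TPM + 1) of the treated group minus that of its control, with the standard error (SE). It was tested with limma over all genes that reached a mean of 1 TPM in at least 1 group, and it passed at an adjusted p under 0.05. On this scale the change of genes with few TPM is understated.

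Some facts about the libraries go against their labels and stand beside every result below. In WT liver the alcohol libraries held 17.8 to 27.3 TPM of Xist, the transcript of the inactive X chromosome, against 0.00165 to 0.135 TPM in the control libraries. Their summed Y-linked transcripts were 0 to 0.0161 TPM on alcohol diet and 11.3 to 16.6 TPM on control diet, although all were labelled male. In WT liver, diet and this difference in sex-linked transcripts cannot be told apart. Of lists of genes known to differ between female and male mouse liver, 12 of 12 female-biased genes were higher and 14 of 14 male-biased genes were lower on alcohol diet. Major urinary protein genes, which are male-biased, took 0.177% to 0.251% of TPM in WT liver on alcohol diet and 7.26% to 10.9% on control diet. In RageΔMye-labelled liver the Y-linked sum was 0.276 to 1.74 TPM on alcohol diet and 3.162 to 4.502 TPM on control diet, while Xist overlapped, at 0.322 to 0.990 TPM and 0 to 3.10 TPM on those diets. Male-biased genes summed there to 591.7 to 5070.0 TPM on alcohol diet and 14790 to 18180 TPM on control diet, with 1 of 14 called lower, the pheromone-binding Mup20 (-4.29, limma adjusted p = 0.0177). Female-biased genes summed to 183.6 to 783.6 TPM on alcohol diet and 0 to 19.1 TPM on control diet, and the major urinary protein genes took 0.0460% to 1.13% and 2.14% to 3.30% of TPM on those diets. The part of these shifts in the RageΔMye-labelled results was not tested. The libraries of the genotypes also stand apart. Those labelled RageΔMye listed 7596 to 8502 genes above 0, against 15113 to 15599 in WT, and 55.8% to 61.7% of their TPM lay on genes whose exons overlap those of another gene on the opposite strand, against 15.4% to 18.3% in WT. Ager itself was at 93.1 to 166 TPM in the RageΔMye-labelled libraries and at 0.0194 to 0.478 TPM in WT, which goes against the label, so that genotype is named as labelled throughout. The median standard deviation of a gene on the log2 scale was 0.889 on alcohol diet and 0.919 on control diet in RageΔMye-labelled liver, against 0.161 and 0.218 in WT liver, and each genotype was therefore fitted on its own.

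In WT liver on alcohol diet, Adh1 and Adh7 rose, and Adh4, Aldh1a1, Cyp2e1 and Cat fell. Aldh2, the main acetaldehyde-oxidising enzyme of mitochondria, did not pass. Adh4 had the steepest fall of the 10, to 33.5% of its mean on control diet, and Adh1 stood at 150.5% of its mean on control diet. In all, 6 of the 10 genes passed, 2 of them higher and 4 lower. Of the 9747 genes tested, 3042 passed, which is 31.2%, with 13.3% higher and 17.9% lower, so with 10 genes this count is read only against that high background. Summed over the 10 genes, the enzymes took 1.52% to 1.67% of TPM on alcohol diet and 1.72% to 1.96% on control diet. The median difference of the 10 genes was -0.07, against -0.05 over all genes tested. Scaling the TPM without the major urinary protein genes moved the median of all genes to -0.17 and left 954 genes higher and 2748 lower, or 25.8% higher among those called, against 42.6% as deposited.

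**Figure D1:**
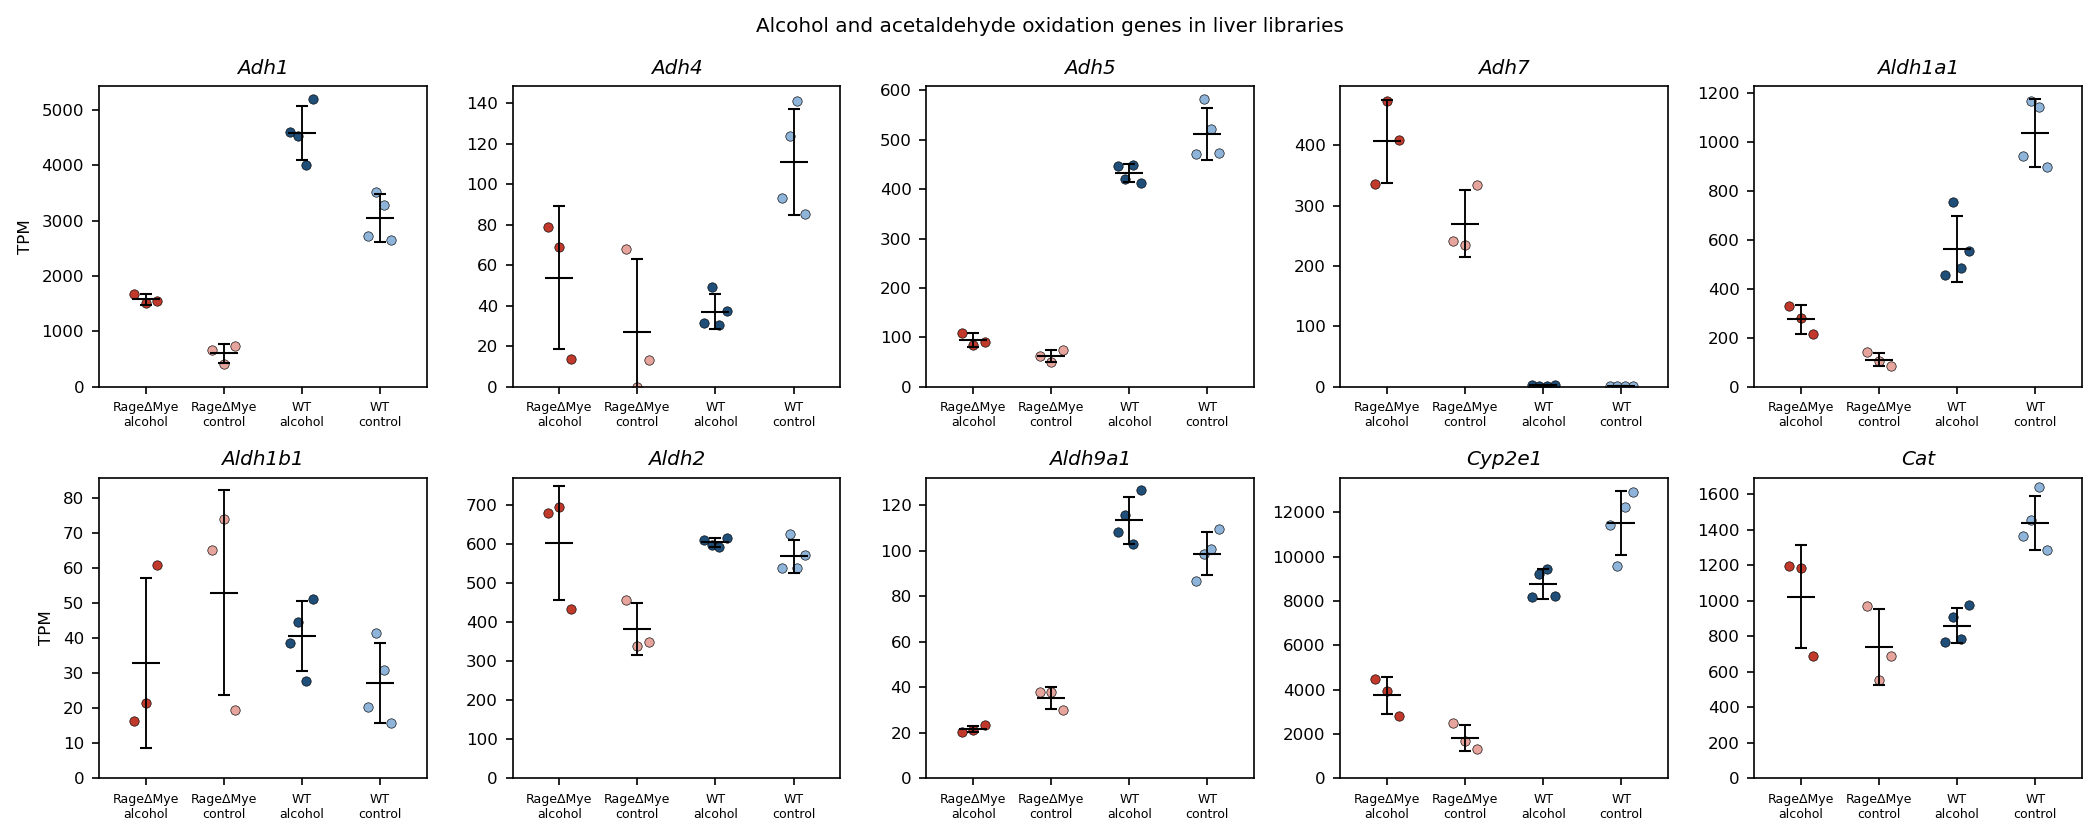
TPM of each enzyme gene in every liver library (points), by labelled genotype and diet, with the group mean (long bar) and 1 standard deviation on either side (short bars, ending at 0 where they would pass below it). In WT liver the alcohol and control libraries separate fully for Adh1, Adh4, Adh5, Adh7, Aldh1a1, Cyp2e1 and Cat, while Aldh2 libraries overlap.

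Among the alcohol dehydrogenases, Adh1, the class I enzyme that carries most hepatic ethanol oxidation, had 4598, 4536, 4000 and 5191 TPM in the WT alcohol libraries, against 2715, 3520, 3290 and 2651 TPM in the WT control libraries. The lowest alcohol library lay above the highest control library. The difference was 0.59 on the log2 scale (SE 0.132, 95% interval 0.302 to 0.887, limma adjusted p = 0.00784). Adh4, the class II enzyme, which also oxidises retinol, moved the other way. It had 31.4, 49.01, 30.7 and 37.4 TPM on alcohol diet, against 93.1, 124, 141 and 85.5 TPM on control diet. Every alcohol library was below every control library, with a difference of -1.55 (SE 0.194, adjusted p = 0.000381). Adh5 is the class III enzyme, which handles formaldehyde bound to glutathione and has little activity on ethanol. It had 447, 421, 449 and 412 TPM on alcohol diet, against 470, 582, 521 and 474 TPM on control diet. Although these libraries did not overlap, the difference of -0.24 did not pass (SE 0.106, adjusted p = 0.11). Adh7, the class IV enzyme known mainly from stomach and other epithelia, was barely present, with 2.71, 2.05, 2.08 and 2.22 TPM on alcohol diet and 1.38, 1.14, 0.961 and 1.68 TPM on control diet. Its difference was 0.52 (SE 0.128, adjusted p = 0.0127), on a scale that understates changes of so low a gene.

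The 4 alcohol dehydrogenase genes lie in a cluster on chromosome 3, all on the plus strand, at chr3:138217760-138233382 for Adh7, chr3:138260991-138290698 for Adh1, chr3:138415466-138430892 for Adh4 and chr3:138443093-138455499 for Adh5 (GRCm38, GENCODE vM21). Genes of this cluster thus moved in opposite directions in WT liver. Within the family, Adh1 made up 89.3% to 92.0% of the summed alcohol dehydrogenase TPM on alcohol diet and 82.5% to 83.3% on control diet. The promoters of Adh1 and Adh4 are shown because these genes of the cluster moved apart. Each runs from 250 bases before the RefSeq start to 50 bases after it, 5′ to 3′, from RefSeq on GRCm38.p6, and lies on the plus strand at chr3:138277335-138277634 for Adh1 and chr3:138415247-138415546 for Adh4. Capitals mark matches on either strand to TATAAA (the TATA box), CCAAT (the CCAAT box, read ATTGG on the other strand), CACGTG (an E-box), TTCNNNGAA (the STAT motif) and AGGTCA (the core motif of many nuclear receptors), and no matches overlapped in the sequences printed.
Adh1: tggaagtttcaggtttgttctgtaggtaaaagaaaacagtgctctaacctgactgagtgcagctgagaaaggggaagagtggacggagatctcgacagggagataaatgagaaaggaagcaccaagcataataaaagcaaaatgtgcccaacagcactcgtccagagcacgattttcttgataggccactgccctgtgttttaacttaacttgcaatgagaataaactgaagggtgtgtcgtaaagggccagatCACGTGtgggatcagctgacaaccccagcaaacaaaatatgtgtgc
Adh4: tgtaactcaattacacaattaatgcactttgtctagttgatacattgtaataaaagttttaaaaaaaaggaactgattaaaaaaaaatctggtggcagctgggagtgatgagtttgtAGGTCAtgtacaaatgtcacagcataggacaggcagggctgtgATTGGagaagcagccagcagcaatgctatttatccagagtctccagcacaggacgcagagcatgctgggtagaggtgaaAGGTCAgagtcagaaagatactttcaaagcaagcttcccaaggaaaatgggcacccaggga
The Adh1 window held an E-box, which 7.15% of the 32851 promoters of this length hold, and it lies after the start. The Adh4 window held a CCAAT box, found in 37.4% of all promoters, and 2 copies of AGGTCA, found in 16.3% of them, of which the nearer begins 11 bases before the start. These matches describe letters in a window and say nothing of which factors bind.

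Of the aldehyde dehydrogenases, only Aldh1a1 passed in WT liver. Aldh1a1 is the cytosolic enzyme that oxidises retinaldehyde as well as acetaldehyde. It had 458, 756, 486 and 557 TPM on alcohol diet, against 945, 1168, 1144 and 897 TPM on control diet. All alcohol libraries were below all control libraries, and the mean was 54.4% of that on control diet. The difference was -0.90 (SE 0.167, adjusted p = 0.00337), and it kept its call in all 17 alternative settings tried. Aldh2, which removes most of the acetaldehyde made from ethanol, had 611, 598, 594 and 616 TPM on alcohol diet, against 538, 626, 540 and 571 TPM on control diet. The libraries overlapped, and the difference of 0.09 had a 95% interval of -0.123 to 0.304 (adjusted p = 0.505). A change within that interval is not excluded by these 8 libraries. Aldh1b1, another mitochondrial acetaldehyde dehydrogenase, had 38.6, 44.6, 27.7 and 51.2 TPM on alcohol diet, against 20.5, 41.3, 30.8 and 15.7 TPM on control diet, with overlap. Its difference of 0.62 did not pass (SE 0.28, adjusted p = 0.115), and it passed without WT control replicate 2, the highest of the control libraries (0.85, adjusted p = 0.0329). Aldh9a1, which acts in carnitine synthesis, ranged from 103 to 127 TPM on alcohol diet and from 86.5 to 109 TPM on control diet, and its difference of 0.20 did not pass (adjusted p = 0.208).

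The ratio of Aldh1a1 to Aldh2 within a library separated the diets in WT liver. There were 0.75 to 1.26 Aldh1a1 transcripts per Aldh2 transcript on alcohol diet and 1.57 to 2.12 on control diet. The order of levels changed with it, since Aldh1a1 was above Aldh2 in every control library, while on alcohol diet the ranges of the 2 genes overlapped. Aldh1a1 lies at chr19:20492715-20643465 on the plus strand and Aldh2 at chr5:121566027-121593824 on the minus strand (GRCm38, GENCODE vM21). Aldh1a1 has 2 starts in the RefSeq promoter table, and the downstream one, at chr19:20601718-20602017 on the plus strand, is shown because it holds motif matches.
Aldh1a1: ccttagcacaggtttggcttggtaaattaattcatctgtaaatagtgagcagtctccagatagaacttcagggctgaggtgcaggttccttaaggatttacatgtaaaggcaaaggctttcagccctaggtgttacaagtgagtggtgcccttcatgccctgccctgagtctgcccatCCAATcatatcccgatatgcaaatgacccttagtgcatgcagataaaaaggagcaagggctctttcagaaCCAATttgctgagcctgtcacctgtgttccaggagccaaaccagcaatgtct
It held 2 CCAAT boxes, which begin 72 and 2 bases before the start, while the upstream start at chr19:20492333-20492632 held no match to any of the 5 motifs. Aldh2 is named only.

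Cyp2e1, the ethanol-inducible cytochrome of the endoplasmic reticulum, whose protein is known to be stabilised by ethanol, had the highest level of the 10 genes in all 4 liver groups. In WT liver it had 8172, 9245, 9450 and 8214 TPM on alcohol diet, against 11435, 9567, 12232 and 12930 TPM on control diet. The groups did not overlap, but the highest alcohol library was close to the lowest control library. The difference was -0.39 (SE 0.125, adjusted p = 0.0369), and this call was the least steady of the 6. It was lost with quantile normalization (-0.18, adjusted p = 0.332), with median of ratios scaling (-0.36, adjusted p = 0.0756) and with no filter on low values (adjusted p = 0.106). It was also lost without WT control replicate 1 (adjusted p = 0.072), 3 (0.0955) or 4 (0.0701), and without WT alcohol replicate 1 (0.106), 2 (0.0556), 3 (0.0541) or 4 (0.0896). Cat, the peroxisomal enzyme that can spend hydrogen peroxide on ethanol, fell more clearly. It had 767, 906, 787 and 974 TPM on alcohol diet, against 1367, 1455, 1639 and 1286 TPM on control diet. The groups were well apart, with a difference of -0.74 (SE 0.122, adjusted p = 0.0018) and a mean at 59.7% of that on control diet.

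Ratios between enzyme genes of the same WT library separated the diets for Cyp2e1 and Cat as well. There were 1.58 to 2.36 Cyp2e1 transcripts per Adh1 transcript on alcohol diet and 2.72 to 4.88 on control diet. There were 1.26 to 1.58 Cat transcripts per Aldh2 transcript on alcohol diet and 2.25 to 3.04 on control diet. For the pair of enzymes that follow each other, there were 0.119 to 0.148 Aldh2 transcripts per Adh1 transcript on alcohol diet and 0.164 to 0.216 on control diet. None of these 4 ratios overlapped between the diets in WT liver, and a ratio within a library does not depend on how that library was scaled. Each ratio holds a gene whose own libraries already lay apart, so the separation describes the same changes and adds no support. The share of other gene pairs that separate was not computed. The promoters of Cyp2e1 (chr7:140763569-140763868, plus strand) and Cat (chr2:103485104-103485403, minus strand) are shown for their different make-up.
Cyp2e1: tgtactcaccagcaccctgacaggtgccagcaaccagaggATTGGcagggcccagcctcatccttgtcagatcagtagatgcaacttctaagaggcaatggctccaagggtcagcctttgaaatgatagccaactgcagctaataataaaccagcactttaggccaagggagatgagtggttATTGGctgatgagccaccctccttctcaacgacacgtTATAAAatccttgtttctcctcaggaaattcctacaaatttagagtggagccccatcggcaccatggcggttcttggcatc
Cat: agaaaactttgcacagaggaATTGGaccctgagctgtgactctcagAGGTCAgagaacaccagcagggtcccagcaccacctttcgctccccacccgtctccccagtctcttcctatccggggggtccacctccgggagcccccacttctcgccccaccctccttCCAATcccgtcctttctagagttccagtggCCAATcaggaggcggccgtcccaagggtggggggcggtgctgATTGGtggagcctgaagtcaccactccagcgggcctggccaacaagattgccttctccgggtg
The Cyp2e1 window held a TATA box that begins 31 bases before the start, a motif found in 13.6% of all promoters of this length, and 2 CCAAT boxes. The Cat window held no TATA box but 4 CCAAT boxes and a copy of AGGTCA. Its GC content was 62.0%, against 49.7% for Cyp2e1 and a median of 52.7% over all promoters.

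**Figure D2:**
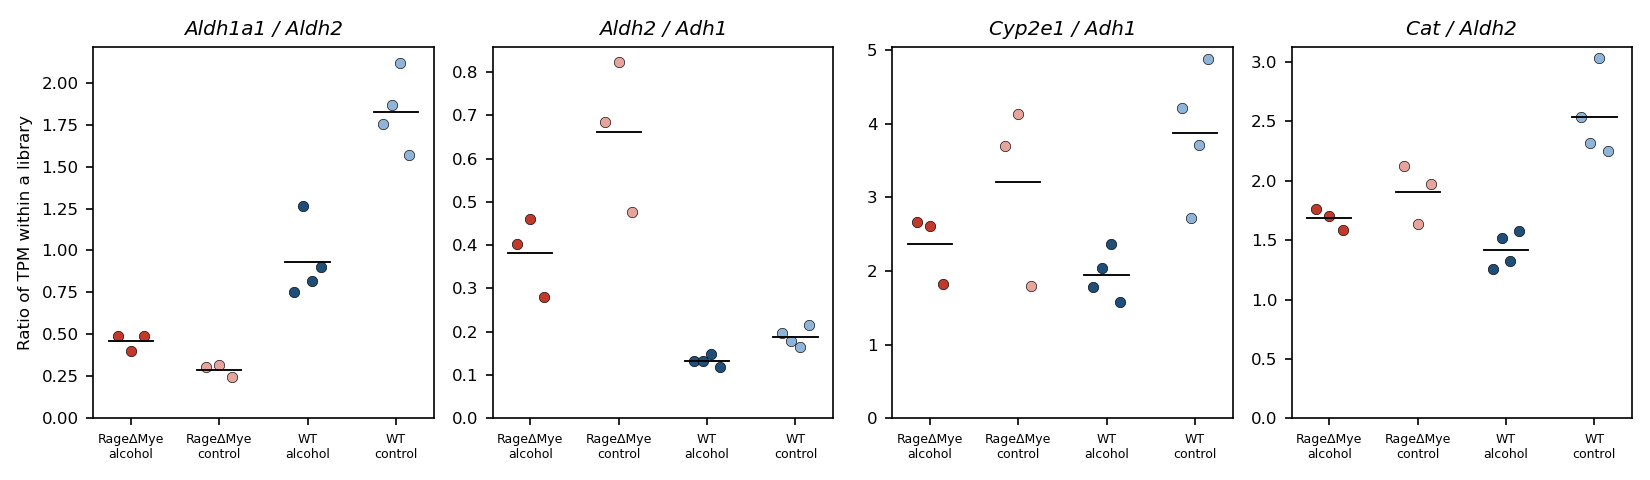
Ratios of TPM between enzyme genes within each liver library (points), by labelled genotype and diet, with the group mean (bar). Aldh1a1 per Aldh2 was lower on alcohol diet in WT liver, at 0.75 to 1.26 against 1.57 to 2.12, and higher on alcohol diet in RageΔMye-labelled liver, at 0.403 to 0.493 against 0.247 to 0.317.

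Some cell type and zonation markers also passed in WT liver, where 13.3% of all genes tested were higher and 17.9% lower. Cyp2e1 and Adh1 are known from the hepatocytes around the central vein. Of 8 tested markers of those cells, 1 was higher (Glul, 0.59, adjusted p = 0.0119) and none lower. Of 10 tested markers of hepatocytes near the portal vein, 1 was higher (Sds, a serine-degrading enzyme) and 3 were lower, namely Hal, G6pc and Cyp2f2 (-1.28, adjusted p = 0.000656). The median difference was -0.22 for the markers around the central vein and -0.19 for those near the portal vein. With so few genes, these counts are read only against the shares of all genes. General hepatocyte markers summed to 136900 to 153500 TPM on alcohol diet and 113900 to 138900 TPM on control diet, with 2 of 7 higher, Tat and Hnf4a, and none lower. Of markers of other cells, 4 of 7 for stellate cells, 2 of 8 for sinusoidal endothelium and 1 of 8 for Kupffer cells were higher, and none was lower, where 13.3% of all genes tested were higher. Of lymphocyte and neutrophil markers 2 of 6 were higher, the neutrophil genes S100a8 (1.08, adjusted p = 0.0143) and S100a9 (1.19, adjusted p = 0.00997). Of macrophage markers 3 of 9 were higher, Cd14, a receptor for bacterial lipopolysaccharide (2.66, adjusted p = 0.000264), Fcer1g (0.54, adjusted p = 0.011) and Itgam (0.35, adjusted p = 0.0343). No tested marker of these lists was lower. Lymphocyte and neutrophil markers summed to 92.3 to 135.2 TPM on alcohol diet and 27.6 to 69.9 TPM on control diet, and macrophage markers to 196.3 to 274.0 TPM on alcohol diet and 134.6 to 149.1 TPM on control diet. Stellate markers summed to 72.5 to 130.8 TPM on alcohol diet and 40.3 to 61.2 TPM on control diet. The part of these shifts, and of the sex-linked transcripts above, in the enzyme results was not tested.

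In RageΔMye-labelled liver none of the 10 genes passed, and 4 had an unadjusted p under 0.05 (Adh1, Aldh1a1, Aldh2 and Cyp2e1, all with higher means on alcohol diet). Only 4 of 10689 genes passed there, which is 0.0374%, and 747 had an unadjusted p under 0.05, which is 6.99%. The median difference of the 10 genes was 0.62, against 0.01 over all genes tested. The alcohol and control libraries did not overlap for 6 of the 10 genes, 5 higher and 1 lower, against 11.7% of all genes tested. In WT liver the same count was 7 of 10, 2 higher and 5 lower, against 30.8% of all genes tested.

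Adh1 showed the clearest separation there, with 1682, 1508 and 1544 TPM on alcohol diet and 670, 411 and 733 TPM on control diet. All alcohol libraries were above all control libraries by a wide margin, and the difference was 1.42 (SE 0.25, 95% interval 0.846 to 2.00, adjusted p = 0.122). Adh5 ranged from 84.0 to 110 TPM on alcohol diet and from 49.3 to 75.0 TPM on control diet (0.61, adjusted p = 0.723). Adh4 was scattered, with 79.0, 68.8 and 13.6 TPM on alcohol diet and 68.0, 0 and 13.4 TPM on control diet. The low Adh4 values sit near the most frequent non-zero value of these libraries, which was 14.4 to 20.6 TPM against 0.0576 to 0.0835 TPM in WT, and a listing at 0 in such a library can be a failed estimate. At least 1 of 10 housekeeping genes was also listed at 0 in every library labelled RageΔMye.

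Aldh1a1 had 332, 280 and 214 TPM on alcohol diet, against 141, 107 and 86.3 TPM on control diet in the same genotype. The libraries did not overlap, and the difference of 1.30 did not pass (SE 0.31, adjusted p = 0.27). Aldh2 had 679, 695 and 434 TPM on alcohol diet, against 458, 338 and 350 TPM on control diet, with 1 alcohol library inside the control range (0.64, adjusted p = 0.672). Aldh9a1 was the gene whose libraries lay apart in the lower direction, with 20.5, 21.4 and 23.3 TPM on alcohol diet and 38.0, 38.1 and 29.9 TPM on control diet (-0.67, adjusted p = 0.751). Its values sit not far above the most frequent non-zero value of these libraries, 14.4 to 20.6 TPM, so this separation lies near the floor. Aldh1b1 was scattered in both groups, from 16.4 to 60.7 TPM on alcohol diet and from 19.6 to 74.1 TPM on control diet (-0.69, adjusted p = 0.751).

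Cyp2e1 had 4479, 3946 and 2827 TPM on alcohol diet, against 2476, 1697 and 1319 TPM on control diet in RageΔMye-labelled liver. The alcohol libraries were all above the control libraries, and the difference of 1.06 did not pass (SE 0.272, adjusted p = 0.324). Cat overlapped, with 1197, 1185 and 689 TPM on alcohol diet and 972, 552 and 689 TPM on control diet (0.47, adjusted p = 0.751). Summed, the 10 genes took 0.631% to 0.893% of TPM on alcohol diet and 0.350% to 0.519% on control diet in this genotype. A joint fit of all 14 liver libraries, which shares 1 spread between the genotypes, called Adh1 (adjusted p = 0.00074), Aldh1a1 (0.00706), Cyp2e1 (0.0133) and Aldh9a1 (0.0443) in RageΔMye-labelled liver, and in WT liver it called Aldh1a1 alone of the 10. The Aldh9a1 call rests on the values near the floor described above.

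**Figure D3:**
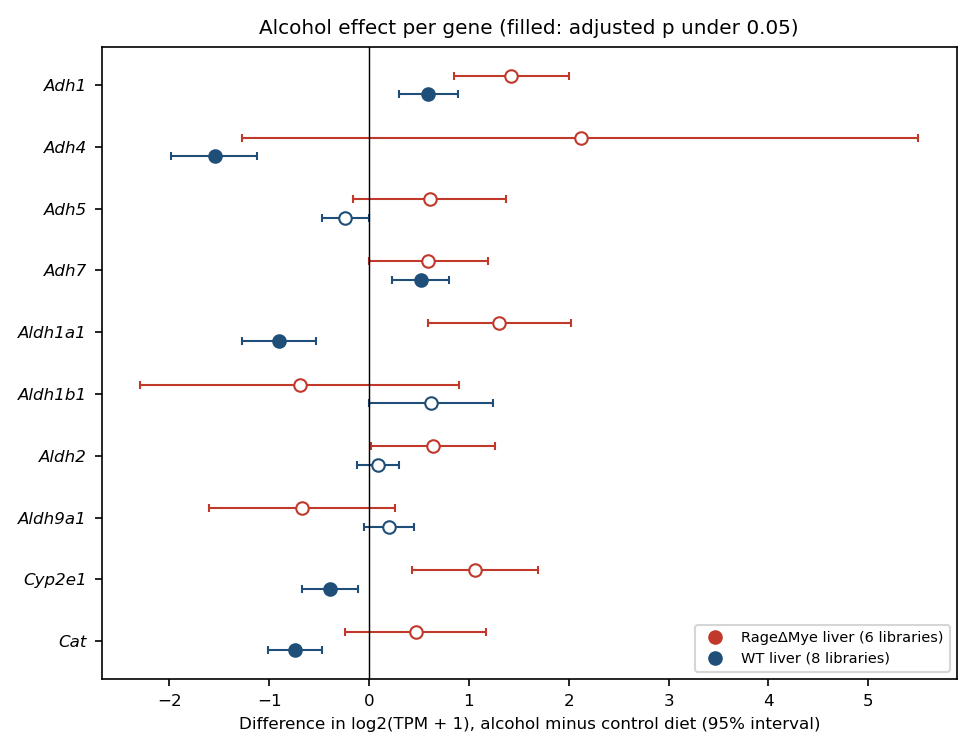
Difference in log2(TPM + 1) between alcohol and control diet for each enzyme gene, with its 95% interval, in RageΔMye-labelled liver (red) and WT liver (blue), filled where the limma adjusted p was under 0.05. Estimates lie above 0 in RageΔMye-labelled liver and below 0 in WT liver for Adh4, Adh5, Aldh1a1, Cyp2e1 and Cat, the other way round for Aldh1b1 and Aldh9a1, and above 0 in both for Adh1, Adh7 and Aldh2, and no gene passed in RageΔMye-labelled liver.

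The difference of the alcohol effect between the genotypes was tested itself, in a fit of all 14 libraries with weights per genotype. None of the 10 genes passed, and 61 of 12069 genes did, which is 0.505%. At an unadjusted p under 0.05 there were 3 of the 10, namely Adh4 (3.67, 95% interval 0.422 to 6.91, adjusted p = 0.483), Aldh1a1 (2.20, interval 0.269 to 4.13, adjusted p = 0.478) and Cyp2e1 (1.45, interval 0.176 to 2.72, adjusted p = 0.478), against 8.5% of all genes tested. In each the effect was more positive in RageΔMye-labelled liver than in WT liver. The SE of Aldh1a1 was 0.899 in this weighted fit, against 0.31 and 0.167 in the fits of RageΔMye-labelled and WT liver alone. That of Cyp2e1 was 0.591, against 0.272 and 0.125, and that of Adh4 was 1.51, against 1.46 and 0.194. A failure to pass here therefore does not show that the effects are alike. Adh4 was listed at 0 in 1 RageΔMye-labelled control library, and its estimate ran from 2.01 to 5.06 over the alternatives. Without the weights, Aldh1a1 (adjusted p = 0.00137) and Cyp2e1 (adjusted p = 0.0127) passed. Depth, spread, genotype and the difference in sex-linked transcripts between the WT diet groups cannot be told apart in this contrast. Its median was -6.72 over the 12 female-biased genes and 3.54 over the 14 male-biased genes.

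Levels in the libraries of the genotypes were far apart and were not tested between them. On control diet, Cyp2e1 averaged 1831 ± 590 TPM in RageΔMye-labelled liver (SD, n = 3) and 11540 ± 1451 TPM in WT liver (SD, n = 4), or 15.9% of WT. Aldh1a1 stood at 10.7% of WT, Adh5 at 12.2% and Adh1 at 19.9% on that diet. Aldh2 was closer, at 99.7% of WT on alcohol diet and 67.1% on control diet. Some means lay above WT, with Adh4 at 145% and Cat at 119% of WT on alcohol diet and Aldh1b1 at 195% on control diet, and both Adh4 and Aldh1b1 were scattered in the RageΔMye-labelled libraries. General hepatocyte markers summed to 38870 to 57370 TPM over all RageΔMye-labelled libraries and 113900 to 153500 TPM over all WT libraries, so their sum was also lower there. Alb weighs most in that sum, with means of 25420 TPM in RageΔMye-labelled liver and 101600 TPM in WT liver on control diet. Apoa1 went the other way, with 21850 and 12880 TPM in these genotypes on that diet. The means of Apob, Ttr, Tat, Hpd and Hnf4a were lower in RageΔMye-labelled liver on both diets.

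Adh7 was far higher in every RageΔMye-labelled library than in any WT library. It had 337, 473 and 410 TPM on alcohol diet and 242, 234 and 334 TPM on control diet in RageΔMye-labelled liver, while no WT library exceeded 2.71 TPM. Its diet difference within that genotype did not pass (0.59, adjusted p = 0.672). Adh7 made up 15.3% to 22.2% of alcohol dehydrogenase TPM on alcohol diet and 23.2% to 33.7% on control diet there, and at most 0.0534% in any WT library. An exon of Adh7 overlaps an exon of 0610031O16Rik, an antisense gene at chr3:138210716-138240405 on the minus strand. That gene had 14.6 to 57.5 TPM in the RageΔMye-labelled libraries and 10.01 to 16.5 TPM in the WT libraries, so the ratio of Adh7 to it was 5.81 to 28.1 and 0.0789 to 0.227 in these genotypes. The most frequent non-zero value of the RageΔMye-labelled libraries was 14.4 to 20.6 TPM. The antisense gene sat at that value in alcohol replicate 3 (14.57 TPM) and control replicates 1 (18.11 TPM) and 2 (20.55 TPM). Its ratio and its diet test in that genotype therefore rest on values near the floor. The kit keeps strand, per the labels' protocols, and the strand setting of the counting is not given in the sources used here. Whether reads of this antisense gene were counted to Adh7 was not tested, and the values stand beside the higher share of TPM on opposite-strand genes in these libraries. The antisense gene did not pass for diet in RageΔMye-labelled liver (0.03, adjusted p = 0.997) or in WT liver (-0.05, adjusted p = 0.848). Adh1 and Aldh2 also overlap opposite-strand genes, Gm16559 and Gm42879, which were not analysed here, and the other 7 enzyme genes have no such partner in GENCODE vM21.

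**Figure D4:**
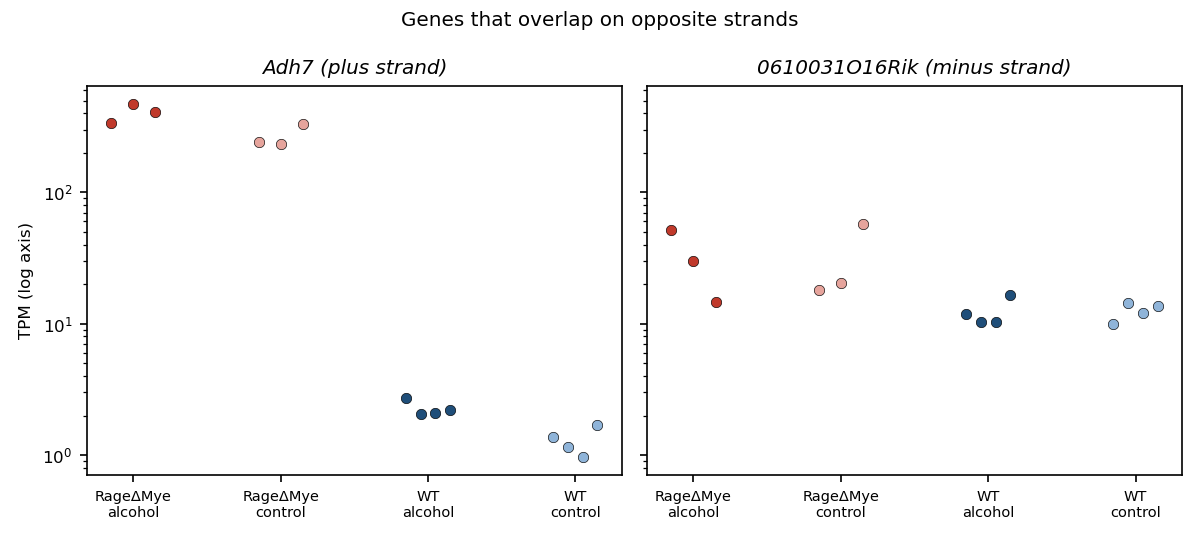
TPM on a log axis of Adh7 (left) and of the antisense gene 0610031O16Rik that overlaps it on the opposite strand (right) in every liver library, by labelled genotype and diet. Adh7 lies between 234 and 473 TPM in the RageΔMye-labelled libraries and below 2.72 TPM in all WT libraries, while the antisense gene lies between 10.01 and 57.5 TPM throughout. In the RageΔMye-labelled libraries the most frequent non-zero value was 14.4 to 20.6 TPM, so the antisense values there include floor values.

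In RAW264.7 cells, enzymes typical of liver were listed at 0. These were Adh1, Adh4, Aldh1a1 and Cyp2e1, each at 0 in all 6 libraries, as were all 7 measured hepatocyte markers, Alb and Apoa1 among them. A 0 here does not show that a gene is not expressed, since between 0 and 2 of 10 housekeeping genes were also at 0 in a library and the most frequent non-zero value was 9.85 to 13.4 TPM. Genes that overlap another on the opposite strand took 56.0% to 58.9% of TPM, as high as in RageΔMye-labelled liver, and the part of this in the levels was not tested. Macrophage-line markers summed to 1422 to 1794 TPM with the complex and 1306 to 1805 TPM with BSA. Cat, Aldh2, Adh5 and Aldh9a1, which many cell types use, had the highest means. Cat, the highest, had 48.4, 47.3 and 50.6 TPM with the complex and 28.7, 51.5 and 38.7 TPM with BSA. Aldh2 had 41.0, 35.5 and 19.5 TPM with the complex and 21.2, 36.1 and 21.9 TPM with BSA. Both overlapped between treatments, as did the 2 genes next in level, Adh5 and Aldh9a1. Adh5 had 13.1, 27.5 and 25.1 TPM with the complex and 11.8, 0 and 15.9 TPM with BSA, and Aldh9a1 had 8.27, 11.6 and 10.9 TPM with the complex and 9.94, 25.1 and 23.6 TPM with BSA. Aldh1b1 was at 0 in the 3 complex libraries and at 0, 4.98 and 5.98 TPM with BSA, and Adh7 was above 0 in 1 BSA library alone, at 1.71 TPM.

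The complex effect could be tested for 5 of the 10 genes, those that reached 1 TPM in a group, and none passed. Of all 10559 genes tested 19 passed, which is 0.18%, and at an unadjusted p under 0.05 there were 877 genes but none of the 5. No enzyme gene had separate libraries, against 13.5% of all genes tested. The differences were 0.33 for Cat (95% interval -0.333 to 0.992, adjusted p = 0.755), 0.25 for Aldh2 (interval -0.673 to 1.17, adjusted p = 0.848) and -0.78 for Aldh9a1 (interval -1.86 to 0.30, adjusted p = 0.695). For Adh5 (1.86, adjusted p = 0.683) and Aldh1b1 (-1.79, adjusted p = 0.609), values of 0 in some libraries decide the estimate. Changes within these wide intervals are not excluded with 3 libraries a group.

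**Figure D5:**
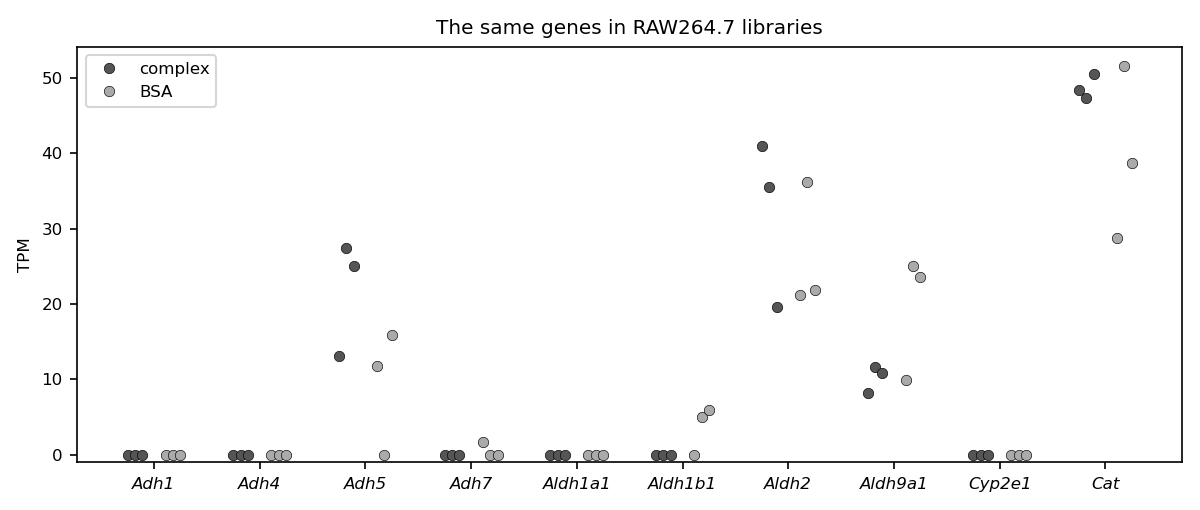
TPM of each enzyme gene in the 6 RAW264.7 libraries, 3 with the [O] HMGB1 and IL1β complex (dark) and 3 with BSA (light). Adh1, Adh4, Aldh1a1 and Cyp2e1 lie at 0 throughout, and Cat reaches 51.5 TPM.

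The enzymes that surround ethanol oxidation were read from lists of 91 further genes, 81 of them tested in WT liver. There 8 were higher and 14 lower on alcohol diet, 27.2% of those tested, near the 31.2% of all genes. Of other cytochromes listed for ethanol or acetone oxidation, 2 of 4 rose, Cyp2a5 and Cyp2b10, and their activity on ethanol was not measured. Cyp2a5, a coumarin hydroxylase, averaged 2078 ± 149 TPM on alcohol diet and 542 ± 114 TPM on control diet (1.96, adjusted p = 7.9e-06). Cyp2a4, of the female-biased list above, averaged 2441 ± 684 TPM and 3.22 ± 4.95 TPM on those diets. Cyp2b10, a target of the xenobiotic receptor CAR, averaged 17.9 ± 12.2 TPM and 2.51 ± 1.57 TPM on those diets (2.30, adjusted p = 0.00634). Cyp2b9 and Cyp2b13, of the same female-biased list, averaged 413 and 248 TPM on alcohol diet and 1.90 and 0.910 TPM on control diet. Whether reads were shared between these genes was not tested. Diet and the difference in sex-linked transcripts cannot be told apart in these rises. Por, the reductase that feeds electrons to these cytochromes, rose (0.53, adjusted p = 0.0143), and Pgrmc1, a haem-binding partner of cytochromes, fell (-0.39, adjusted p = 0.0382), of 5 electron transfer genes tested.

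Of 10 NADH shuttle genes, 1 passed in WT liver. Gpd1, the cytosolic glycerol-3-phosphate dehydrogenase that reoxidises NADH, fell to 81.8 ± 17.2 TPM on alcohol diet, against 264 ± 32.6 TPM on control diet (-1.70, adjusted p = 6.5e-05). Of 5 acetate-activating genes tested, Acss3, a mitochondrial acyl-CoA synthetase, was the 1 that rose (1.02, adjusted p = 0.0389). Of 14 peroxisomal genes tested, 4 fell and none rose, where 17.9% of all genes tested were lower and 31.2% passed, so the count is near the background. They were Hao1, which makes hydrogen peroxide from glycolate (-1.51, adjusted p = 1.62e-05), the epoxide hydrolase Ephx2 (-0.88, adjusted p = 0.000522), the bile acid oxidase Acox2 (-0.51, adjusted p = 0.00379) and the import receptor Pex5 (-0.54, adjusted p = 0.00733). Of 11 other genes that remove hydrogen peroxide or superoxide, Sod2 (0.48, adjusted p = 0.00913) and Txnrd1 (0.49, adjusted p = 0.0376) rose and none fell.

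Of 12 other aldehyde dehydrogenases tested in WT liver, 2 rose and 3 fell. Aldh1a7, a close relative of Aldh1a1 whose reads may be shared with it, fell to 87.9 ± 19.9 TPM on alcohol diet, against 215 ± 41.4 TPM on control diet (-1.29, adjusted p = 0.000848). Aldh7a1, of lysine breakdown (-0.76, adjusted p = 0.000594), and Aldh8a1 (-0.46, adjusted p = 0.0182) fell, and Aldh3b3 rose at a low level, with 3.05 ± 0.761 TPM on alcohol diet and 0.0309 ± 0.0398 TPM on control diet (1.96, adjusted p = 4.5e-06). Of 6 other alcohol dehydrogenases and aldehyde reductases, Akr1c6 (-0.66, adjusted p = 0.00443) and Akr7a5 (-0.76, adjusted p = 0.00565) fell. In RageΔMye-labelled liver none of 77 tested genes of these lists passed, against 0.0374% of all genes tested. There 10 of the 77 had an unadjusted p under 0.05 in limma, against 6.99% of all genes tested. The values with the smallest p there were those of Cyp2a5, with 1941 ± 257 TPM on alcohol diet and 59.5 ± 46.6 TPM on control diet (5.50, adjusted p = 0.063), and Por, with 177 ± 34.9 TPM and 39.2 ± 5.53 TPM on those diets (2.14, adjusted p = 0.102). The female-biased Cyp2a4 averaged 352 ± 374 TPM and 0 TPM on those diets in this genotype.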

How the data were processed

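The library kit was TruSeq Stranded mRNA, per the labels' protocols. Per the submitters' processing notes, reads were placed on mm10. Which aligner and which counting settings were used is not given in the sources used here. The authors deposited a liver table and a RAW264.7 table, with a column for each of the 20 libraries. The headers name no unit, and the deposited values were read as TPM because they are not whole numbers and every column sums to the same total. TPM keeps no read depth, so intervals for counting error are left out.

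Values were used as log2(TPM + 1). The tests used limma 3.58.1 (R 4.3.3, intensity trend) on all genes whose mean reached 1 TPM in a group of the fit, with Benjamini-Hochberg adjustment over all of them and a threshold of 0.05. The 8 WT libraries, the 6 RageΔMye-labelled libraries and the 6 RAW264.7 libraries were fitted apart, and the difference between genotypes came from a fit of all 14 liver libraries with weights per genotype. The tables were not tested against each other. Simulated data with known changes were used to test the fits within a genotype or the cell line. The fit of the difference between genotypes was not tested in that way. Alternatives were other pseudocounts, filters, scalings and joint fits, a replicate block, and omission of each library in turn.

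The members, the other lists and the naming rule were chosen with earlier results of these data known. All 10 members are named in every comparison. Of the other lists, up to 4 passing genes with the smallest adjusted p are named, or where none passed the 2 with the smallest p, without a call, of which not all are printed. For members that passed in WT liver and averaged at least 10 TPM there, the 3 such genes with the most similar levels are named. Adh7 passed but lay below that level, and a row whose symbol reads as a date is left unnamed. GENCODE vM21 held 24464 of the 24972 symbols, and 5931 shared exon bases with a gene on the opposite strand. Promoters came from RefSeq on GRCm38.p6, in which 9 of the 10 members were matched.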

Additional observations from a re-analysis of the deposited data

How the results depend on the processing

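The joint fit of all 14 liver libraries lowered the calls in WT liver to 337 genes over the whole table and to 1 of the 10 enzyme genes, while in RageΔMye-labelled liver it raised them to 657 genes and 4 of the 10. In WT liver a filter at a group mean of 5 TPM left 1881 genes called, with fewer genes tested. Over the alternatives, the 10 genes gave 169 values in WT liver, of which 150 kept their side of the threshold, 15 lost their call and 4 gained one. Of the 15, 11 were for Cyp2e1, and the others were for Adh1, Adh4, Adh7 and Cat in the joint fit. Adh5 passed with quantile normalization, without the major urinary protein genes and with weights per genotype (adjusted p 0.0343, 0.0191 and 0.036). No called enzyme gene changed direction. In RageΔMye-labelled liver the count over all genes was 7 with quantile normalization, 7 with median of ratios scaling, 0 with a pseudocount of 0.01 TPM, 9 with a filter at 5 TPM and 50 with weights per genotype. Leaving out 1 library at a time gave 0 to 5 genes there, with 0 without control replicate 2, control replicate 3 or alcohol replicate 2, 2 without alcohol replicate 1, and none of the 10 enzyme genes in any. The difference between genotypes had 128 genes with no filter and 463 genes and 2 of the 10 without weights. In RAW264.7 cells, leaving out 1 library at a time gave 2 to 9 genes, against 19, with each of the 6 omissions more than 1.5 times lower. The cause of these shifts was not tested.

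The sample numbers in the labels gave no sign of a pairing. Deviations of same-numbered libraries correlated at -0.016 to 0.018 in RageΔMye-labelled liver and at -0.025 to -0.001 in RAW264.7 cells. Those of differently numbered libraries correlated at -0.037 to 0.038 in RageΔMye-labelled liver. With 3 widely spread libraries a group, such values cannot exclude a pairing. With the replicate block, 0 genes passed in RageΔMye-labelled liver and 0 in RAW264.7 cells, and 0 of the enzyme genes in either. RageΔMye-labelled liver and RAW264.7 cells had 3 libraries a group, against 4 in WT liver, and TPM does not give the read depth.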

Other observations

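Several enzymes of ethanol oxidation also act on vitamin A, and the retinoid partners of Adh4 and Aldh1a1 were read from a list of 16 genes, 14 of them tested in WT liver. There 3 fell on alcohol diet and none rose, near the 17.9% of all genes tested that were lower. Dhrs3, which turns retinaldehyde back into retinol, averaged 32.1 ± 6.61 TPM on alcohol diet and 74.7 ± 25.1 TPM on control diet (SD, n = 4 each), a log2 difference of -1.15 (SE 0.243, limma adjusted p = 0.00622). The retinol dehydrogenases Rdh14 (-0.41, adjusted p = 0.0198) and Rdh7 (-0.33, adjusted p = 0.0479) fell with it. In RageΔMye-labelled liver none of 11 tested genes passed, and Rbp4, the retinol carrier of blood, had 2563 ± 898 TPM on alcohol diet and 1442 ± 179 TPM on control diet (SD, n = 3 each, adjusted p = 0.581).

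Across the 8 WT libraries, among 4034 genes averaging 10 TPM or more, the levels most like those of Adh1 were those of Slco1a4, Npc2 and Vnn3 (Pearson's r = 0.991, 0.988 and 0.986). For Adh4 they were Csad, Pja1 and Glyat (0.995, 0.994 and 0.993), and for Cat they were Polb, Ido2 and Lap3 (0.992, 0.99 and 0.99). For Aldh1a1 they were Pex5 and Dym (0.992 and 0.987), with a row between them whose symbol reads as a date and is left unnamed. The closest to Cyp2e1 were weaker, at 0.968 for Ctr9, 0.961 for Nup85 and 0.956 for Ldhd. These libraries form 2 diet groups that also differ in sex-linked transcripts, so the values describe likeness and carry no p.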
